A study of Homo sapiens with 9 samples.

Results

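OCI-Ly1 cells cultured for 48 h with 500 nM JIB-04 were compared with OCI-Ly1 cells cultured with the vehicle DMSO, over every gene with enough counts to be tested. OCI-Ly1 is an established human cell line derived from a diffuse large B-cell lymphoma, a tumour of B lymphocytes. JIB-04 is a small molecule that inhibits histone demethylases of the Jumonji family. The comparison takes 6 of the 9 libraries of the series, 3 for each condition. The remaining 3 libraries, from cells cultured with 150 nM JIB-04, entered the fit to help estimate the spread between libraries, and their values are given beside some results. Total RNA was depleted of ribosomal RNA before sequencing. All cells are of 1 line grown in the same medium with serum. Nothing in the labels tells if replicate libraries derive from independent cultures. The p-values therefore reflect only how much libraries of the same condition varied, an estimate pooled over all 9 libraries and partly shared between genes. That variation may be technical.

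Jumonji demethylases remove methyl groups from lysines of histone tails, using iron, oxygen and 2-oxoglutarate. KDM4A, KDM4B and KDM4C act mainly on trimethylated lysine 9 and lysine 36 of histone H3, KDM5 enzymes on lysine 4, and KDM6 enzymes on lysine 27. Germinal-centre B cells depend on a network of transcription factors centred on BCL6. When such a cell becomes an antibody-secreting plasma cell, IRF4, PRDM1 and XBP1 take over and the secretory pathway expands.

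The table held 25370 gene symbols. The DMSO libraries held 44421096, 28476845 and 44307274 counts (replicates 1, 2 and 3) and the 500 nM libraries 57198613, 42351389 and 50089093. In a principal component analysis the first component held 57.1% of the variance and set the 500 nM libraries (56.9 to 64.31) apart from the DMSO libraries (-49.03 to -36.1). DMSO replicate 2, the shallowest library, stood apart from the other two DMSO libraries on the second component. Values per library are given in the order of replicates 1, 2 and 3, in CPM, meaning edgeR's scaled counts after adjusting library sizes by TMM.

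Of 15089 genes tested, 3975 were higher (26.3%) and 3868 lower (25.6%) at 500 nM, at an adjusted p under 0.05 in edgeR's quasi-likelihood test. With 52.0% of all genes called in one direction or the other, a call by itself says little about size. The counts of each list below are to be read against these shares. The median absolute log2 fold change was 0.315. When a change had to exceed 1.5-fold, 1018 genes were higher (6.75%) and 453 lower (3.0%), so that the larger changes were mostly increases. At least 2-fold higher were 1106 called genes (7.33%), and 439 were at least 2-fold lower (2.91%). In 8932 genes (59.2%), called or not, the 3 libraries of one group did not overlap with those of the other. Lack of overlap was also a condition for naming most of the genes below. Where it is stated for such a gene, it describes the values and adds no support to the change. Scaling by total counts in place of TMM moved the median log2 fold change of all genes from 0.0122 to 0.1512 and gave 5716 higher and 2514 lower genes. A list's higher and lower counts under that scaling stand in parentheses where it moved one of them by more than 1.5 times. Some list members lay under the filter level of 0.23 CPM in a DMSO library, so that they could be tested through the groups where they are high. Where 4 or more did, their number is given beside the list's counts, and no direction is read from those counts. "Rose" and "fell" are used only of called genes, and ± after a log2 fold change is its standard error with 3 libraries a group. In a bulk measurement of this kind, a change in RNA per cell and a change in the make-up of the cells cannot be told apart.

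**Figure D1:**
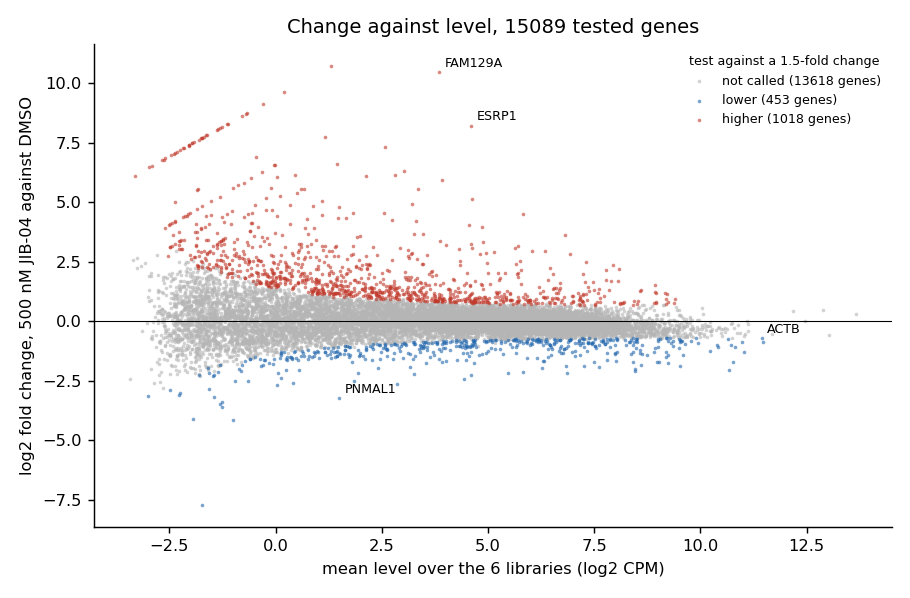
Log2 fold change of each of 15089 tested genes at 500 nM JIB-04 against DMSO (y axis) by its mean level over the 6 libraries (x axis, log2 CPM). Red and blue points are genes that changed by more than 1.5-fold in edgeR's test (1018 higher, 453 lower) and grey points the rest. The straight lines of red points at low level are genes with 0 or a few counts in the DMSO libraries, whose fitted changes depend on the prior count.

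The targets of the drug were themselves measured. KDM4A stood at 81.2, 84.5 and 76.9 CPM with DMSO and 109, 100.4 and 98.2 CPM at 500 nM. The groups did not overlap, and KDM4A rose by 0.34 ± 0.06 on the log2 scale (adjusted p = 6.31e-05). KDM4C stood at 83.5, 82.5 and 84.9 CPM with DMSO and 105, 92.6 and 96.2 CPM at 500 nM and rose by 0.23 ± 0.06 (adjusted p = 0.00249). KDM4B, at 34.2, 34.7 and 33.9 CPM with DMSO and 36.3, 33.4 and 34 CPM at 500 nM, did not pass the test, with a log2 fold change of 0.01 ± 0.09. The largest increase in the family was that of KDM6B, which removes methyl groups from lysine 27 of histone H3: it stood at 9.16, 8.61 and 7.59 CPM with DMSO and 29.7, 28.6 and 27 CPM at 500 nM, and rose by 1.75 ± 0.10. KDM5B, a demethylase of lysine 4 named here after its values were seen, rose by 1.57 ± 0.27 from a mean of 1.28 to 3.86 CPM. PHF2, a demethylase related to KDM7, rose by 0.65 ± 0.08. Of 24 tested Jumonji genes, 13 rose and 4 fell (total counts: 17 higher, 2 lower), with a median log2 fold change of 0.16. KDM3B and JMJD6 were among those that fell, by 0.27 and 0.32.

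Other chromatin genes moved in both directions. Of 43 tested histone and DNA methyltransferases, 10 rose and 15 fell (total counts: 14 higher, 8 lower). DNMT3A, a de novo DNA methyltransferase, rose by 0.83 ± 0.10, and KMT2D, a lysine 4 methyltransferase often mutated in B-cell lymphoma, rose by 0.73 ± 0.08. SETMAR fell by 0.72 and PRMT6, an arginine methyltransferase, by 0.53. Of 34 Polycomb genes, 12 rose and 9 fell. EED, a core subunit of the complex that methylates lysine 27, fell by 0.64, and PHC1 rose by 0.59 ± 0.08. Of 38 genes of histone acetylation, 17 rose and 8 fell (total counts: 23 higher, 4 lower), and HDAC5, a class IIa deacetylase, had the largest increase of those named, at 1.26 ± 0.09. The class I deacetylases HDAC1 and HDAC3 fell by 0.34 and 0.32. Among 35 remodellers of the SWI/SNF, CHD and INO80 families, 18 fell and 7 rose, against 9 and 12 under scaling by total counts. RUVBL1, an ATPase of INO80, fell by 0.62, and CHD2 rose by 0.70 ± 0.05.

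B-cell transcription factors moved in both directions, and BCL6 did not pass the test. BCL6, the repressor that defines the germinal-centre stage, stood at 235, 223 and 229.6 CPM with DMSO and 234, 233 and 237 CPM at 500 nM. The libraries of both groups overlapped, with a log2 fold change of 0.04 ± 0.05 (adjusted p = 0.557). It was called higher, at a log2 fold change of 0.18, when libraries were scaled by total counts. IKZF1, the lymphoid factor Ikaros, stood at 481, 464 and 464 CPM with DMSO and 244, 272 and 258 CPM at 500 nM. No library of one group reached the other, and IKZF1 fell by 0.86 ± 0.05 (adjusted p = 2.04e-14). POU2F2, which encodes the octamer factor OCT2, fell by 0.79 and ID3, an inhibitor of E proteins, by 0.77. BACH2 and EBF1, which hold cells in the B-cell state, rose by 0.61 ± 0.05 and 0.54 ± 0.06. FOXP1 rose by 0.36 ± 0.05, and MYC by 0.27 ± 0.05, from 354, 335 and 319 CPM to 403, 414 and 399 CPM. Over the list of 25 tested B-cell factors, 7 rose and 12 fell, and the median log2 fold change of -0.091 turned to 0.049 under scaling by total counts.

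Germinal-centre effector and surface genes fell more often than they rose: of 27 tested, 16 fell and 5 rose (total counts: 9 higher, 11 lower), with a median log2 fold change of -0.286. RGS13, a regulator of chemokine-receptor signalling, stood at 128, 143 and 155 CPM with DMSO and 62.6, 71.4 and 64.7 CPM at 500 nM. CD180, a Toll-like receptor homologue of B cells, stood at 37.5, 30.02 and 29.5 CPM with DMSO and 12, 14.6 and 12.6 CPM at 500 nM. In both, every 500 nM library lay under every DMSO library, and they fell by 1.10 ± 0.10 and 1.31 ± 0.10. ELL3, an elongation factor of B cells, fell by 1.02. MME, the surface peptidase CD10, was chosen after its values were seen, and fell by 0.57 ± 0.05, from 391, 412 and 409.6 CPM to 264, 267 and 283 CPM. Outside this list, CD52, the short glycoprotein targeted by alemtuzumab, stood at 122, 121 and 122 CPM with DMSO and 37.2, 36.9 and 41 CPM at 500 nM. CD52 was among the largest decreases of all well-expressed genes, at -1.66 ± 0.06. List members that rose included CCR7, the receptor that guides B cells to the T-cell zone (from a mean of 0.856 to 6.003 CPM), and the death receptor FAS (from 1.14 to 6.64 CPM). CCR7 rose by 2.78 ± 0.23, FAS by 2.56 ± 0.22, and CD83, an activation marker, by 0.98 ± 0.08.

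The plasma-cell list split. IRF4 stood at 263, 243 and 231 CPM with DMSO and 462, 456 and 436 CPM at 500 nM. Its groups were far apart, and it rose by 0.88 ± 0.05 (adjusted p = 5.87e-14). XBP1, the transcription factor of the secretory programme, stood at 8.83, 6.78 and 6.88 CPM with DMSO and 26.6, 21.8 and 21.5 CPM at 500 nM. ERN1, the sensor kinase that splices XBP1 mRNA, stood at 3.34, 2.97 and 3.04 CPM with DMSO and 32, 28.8 and 27.3 CPM at 500 nM. Both rose without overlap, XBP1 by 1.63 ± 0.12 and ERN1 by 3.23 ± 0.13. TNFRSF17, the plasma-cell receptor BCMA, rose by 1.38 ± 0.08, from 51.2, 58.7 and 44 CPM to 136, 129.9 and 134 CPM. MZB1, a chaperone of immunoglobulin assembly, moved the other way, from 189, 180.4 and 176 CPM to 89.4, 104 and 95.1 CPM, and fell by 0.92 ± 0.06. The joining chain gene IGJ fell by 0.55 and the disulphide isomerase PDIA4 by 0.54. PRDM1, the repressor that ends the B-cell programme, was low in both groups, at 1.51, 2.31 and 2.36 CPM with DMSO and 1.74, 1.15 and 1.57 CPM at 500 nM, and did not pass the test (-0.45 ± 0.26, adjusted p = 0.146). In all, 7 of 15 tested members rose and 4 fell.

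**Figure D2:**
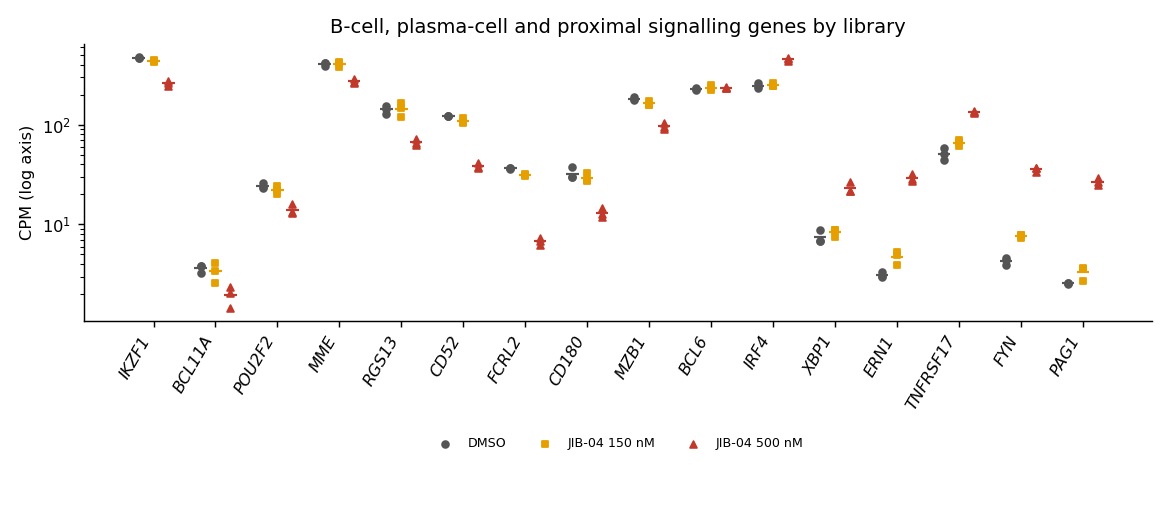
Level in CPM (log y axis) of 16 B-cell, plasma-cell and proximal signalling genes in each of the 9 libraries, with the mean of each group as a bar (grey DMSO, orange 150 nM, red 500 nM). IKZF1 and MME fell, and IRF4, XBP1, ERN1, FYN and PAG1 rose, with no overlap between DMSO and 500 nM. The BCL6 libraries of DMSO and 500 nM overlapped.

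Genes next to the B-cell receptor included both strong increases and modest decreases. FYN, a Src-family kinase more typical of T cells, stood at 3.92, 4.4 and 4.61 CPM with DMSO and 37, 37 and 33.2 CPM at 500 nM. PAG1, the membrane adaptor that brings the kinase CSK to Src-family kinases, stood at 2.53, 2.57 and 2.6 CPM with DMSO and 28.8, 24.9 and 26.9 CPM at 500 nM. SH3BP2, an adaptor of SYK and PLCG signalling, stood at 6.86, 4.14 and 4.59 CPM with DMSO and 53.9, 56.9 and 51.2 CPM at 500 nM. For all of these genes the lowest 500 nM library lay far above the highest DMSO library, with log2 fold changes of 3.05 ± 0.11, 3.39 ± 0.13 and 3.35 ± 0.13. The calcium channel ITPR1 rose by 1.28 ± 0.08 and the exchange factor RASGRP3 by 0.85 ± 0.06. BTK, the kinase inhibited by ibrutinib, fell by 0.72 ± 0.05, from 146, 158 and 157 CPM to 94.5, 93.8 and 92 CPM, and VAV1 fell by 0.65. LYN and SYK, the first kinases of the receptor and named after their values were seen, fell by 0.33 and 0.40. CD79A and CD79B, which together carry the receptor's signal, were also chosen in this way. CD79A did not pass the test, at 214, 204 and 199 CPM with DMSO and 215, 216 and 221 CPM at 500 nM. CD79B stood at 434.9, 411.1 and 365.3 CPM with DMSO and 295, 304 and 301.2 CPM at 500 nM. Every 500 nM library of CD79B lay under every DMSO library. Of 26 tested members of the receptor list, 10 fell and 7 rose, against 9 and 12 under scaling by total counts.

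Inhibitory receptors were mostly lower: 10 of 19 tested genes fell and 3 rose (total counts: 5 higher, 9 lower). FCRL2, an Fc receptor-like inhibitor, stood at 36.5, 36.1 and 36.8 CPM with DMSO and 6.22, 6.79 and 7.38 CPM at 500 nM, and fell by 2.42 ± 0.09. Its relative FCRL3 fell by 0.97 and CEACAM1 by 1.06, whereas FCRL5 rose by 0.44 ± 0.09. LAPTM5, a lysosomal protein that lowers receptor levels, rose by 1.07 ± 0.05, from 136, 145 and 129.8 CPM to 286, 286 and 289 CPM.

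The 2 antigen-presentation pathways were each mixed. For MHC class II, 6 of 14 tested genes fell and 3 rose. HLA-DMA, which loads peptides onto class II molecules, stood at 10.1, 10.6 and 8.73 CPM with DMSO and 3.43, 4.26 and 4.2 CPM at 500 nM, and fell by 1.31 ± 0.13. Its partner HLA-DMB fell by 0.71 and the lysosomal thiol reductase IFI30 by 1.12. CIITA, the master activator of class II genes, stood at 53.3, 52.1 and 46.1 CPM with DMSO and 60.6, 60.5 and 58 CPM at 500 nM and rose by 0.24 ± 0.07 (adjusted p = 0.00586). Without DMSO replicate 3 it no longer passed the test. RFXANK, a subunit of the factor that binds class II promoters, rose by 0.86 ± 0.08. HLA-DRA was nearly absent in these cells, with 0.186 CPM on average with DMSO and 1.03 at 500 nM. For MHC class I, 5 of 17 rose and 7 fell. HLA-B rose by 0.42 ± 0.10 and the activator NLRC5 by 0.71 ± 0.17, while the chaperone CALR fell by 1.02 and the immunoproteasome subunit PSMB8 by 0.80. HLA genes are near-identical copies, so reads may be split between them.

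Interferon-stimulated genes were divided, with 12 of 34 higher and 11 lower (total counts: 15 higher, 6 lower). IRF7 stood at 6.54, 5.28 and 4.47 CPM with DMSO and 21.7, 18.3 and 21 CPM at 500 nM and IRF1 at 15.2, 15.8 and 14.4 CPM with DMSO and 34.5, 34.1 and 33.9 CPM at 500 nM. These transcription factors rose by 1.90 ± 0.14 and 1.18 ± 0.09, as did IFI35, by 1.34 ± 0.15. IFI44 was lower in every 500 nM library (1.29, 1.66 and 1.27 CPM) than in any DMSO library (5.36, 6.75 and 6.6 CPM), and fell by 2.15 ± 0.19. BST2, the antiviral tether, fell by 0.78 and OAS3 by 0.68. Among cytokines and their receptors, 13 of 28 were higher and 2 lower (CCR6 and CCL5, and 16 and 1 under total counts), but 5 of the 28 had a DMSO library under the filter level. LTA, which encodes lymphotoxin alpha, rose by 1.56 ± 0.21, from 2.06, 2.68 and 1.83 CPM to 7.12, 6.5 and 5.55 CPM, and IL2RA, the high-affinity subunit of the IL-2 receptor, by 1.2 ± 0.09. CCR6, a chemokine receptor of mature B cells, fell by 1.10 ± 0.15.

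**Figure D3:**
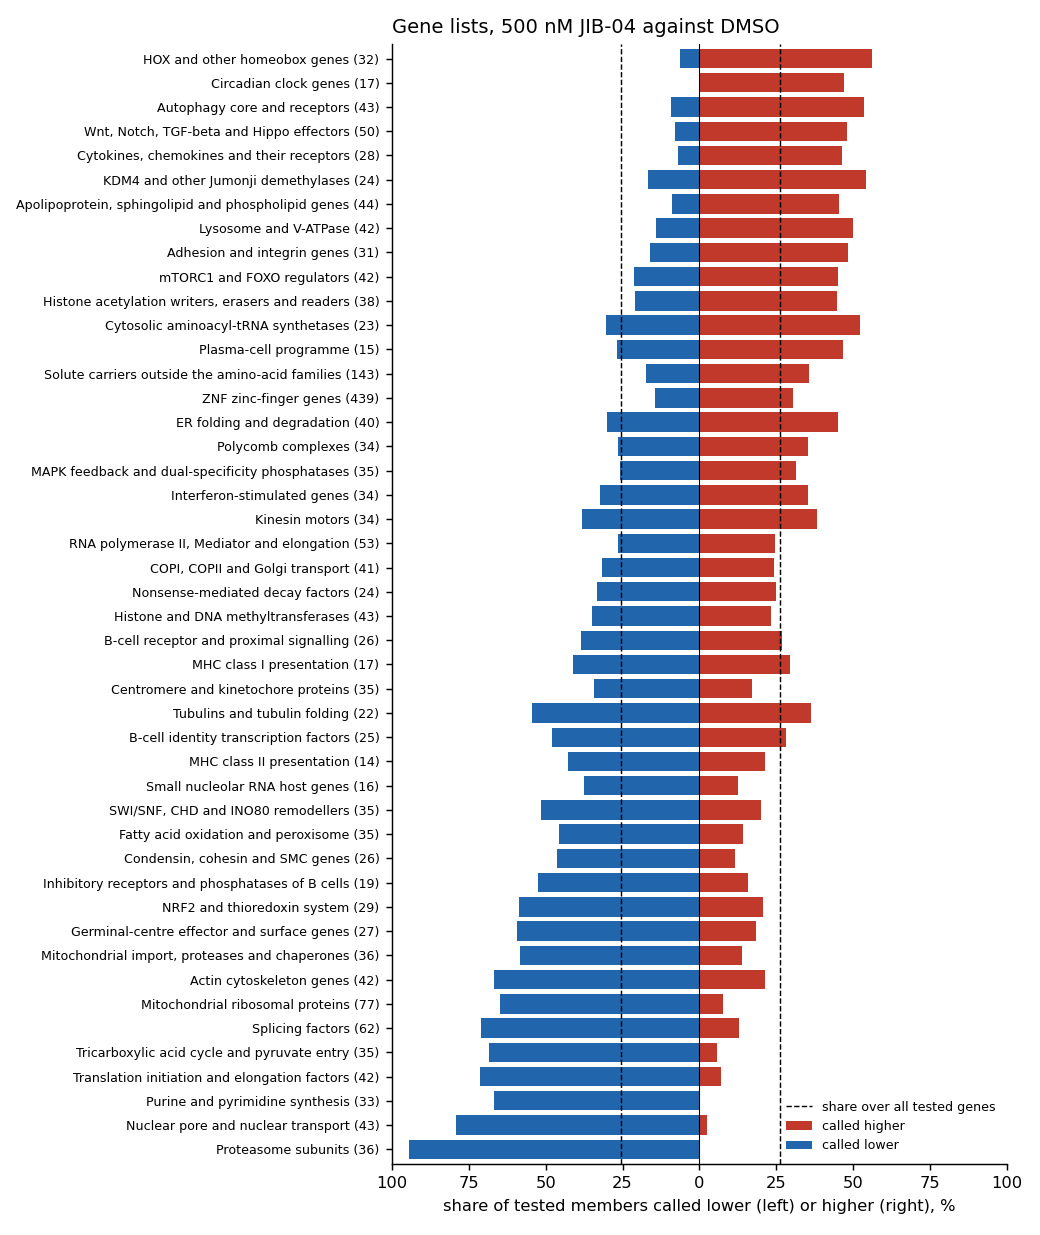
Share of the tested members of each of 46 gene lists that were called higher (red, to the right) or lower (blue, to the left) at 500 nM JIB-04 against DMSO, with the number tested in parentheses. Dashed lines mark the shares over all tested genes, 26.3% higher and 25.6% lower. Proteasome subunits, nuclear transport and nucleotide synthesis lie at the lower end. Of the lists from which a direction is read, clock and autophagy genes lie nearest the upper end. No direction is read for the homeobox list, where 7 of 32 tested members lay under the filter level in a DMSO library.

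The largest changes among genes that reached 5 CPM in a group were increases from very low levels. FAM129A, a stress-induced regulator of translation also called Niban, had 2 counts in all DMSO libraries together and 4665 at 500 nM, a ratio of 1660 with a 95% counting interval of 459 to 13700 that covers counting error only. FERMT2, which activates integrins, stood at 0.139, 0.147 and 0.281 CPM with DMSO and 15.6, 13.3 and 12.5 CPM at 500 nM, and HMCN1, an extracellular matrix protein, at 0.232, 0.0733 and 0.0468 CPM with DMSO and 9.59, 8.14 and 8.37 CPM at 500 nM. Both were close to absence with DMSO and had log2 fold changes of 6.13 ± 0.29 and 6.11 ± 0.33. BATF3, an AP-1 factor of dendritic cells, rose from 0.371, 0.367 and 0.656 CPM to 11.5, 11.7 and 10.5 CPM, by 4.55 ± 0.21. MOCOS, which sulphurates the molybdenum cofactor, rose by 4.24 ± 0.19, and TBC1D16, a GTPase-activating protein, by 4.56 ± 0.29. The growth factor MDK, the binding protein IGFBP4 and the cytoskeletal adaptor ANK2 rose by 3.55 ± 0.27, 3.67 ± 0.17 and 3.25 ± 0.12.

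Decreases were smaller in size. PNMAL1 fell by 3.22 ± 0.24, from 4.96, 5.28 and 5.06 CPM to 0.299, 0.688 and 0.672 CPM, the antimicrobial peptide gene CAMP by 2.65 ± 0.14 and the galectin LGALS14 by 2.49 ± 0.19. These were the largest among the genes eligible to be named. Among genes of higher level, PRX, which encodes periaxin, stood at 96.1, 98.2 and 83.7 CPM with DMSO and 19.6, 23.1 and 20.6 CPM at 500 nM, and MACC1, a regulator of MET signalling, at 68.7, 76.1 and 75 CPM with DMSO and 14.7, 17.7 and 16 CPM at 500 nM. Neither overlapped, and they fell by 2.14 ± 0.08 and 2.19 ± 0.08. The mechanosensitive channel PIEZO2 fell by 1.75, APP, the amyloid precursor, by 1.76, and the kinase RPS6KA2 by 1.72. CYP1A1, the target of the aryl hydrocarbon receptor, fell by 2.23, from 46.5, 37.7 and 36.7 CPM to 8.88, 7.59 and 9.25 CPM. ABI3, an actin regulator, fell by 1.65, RCAN2, an inhibitor of calcineurin, by 1.63, and the germinal-centre lectin CLEC17A by 1.61.

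**Figure D4:**
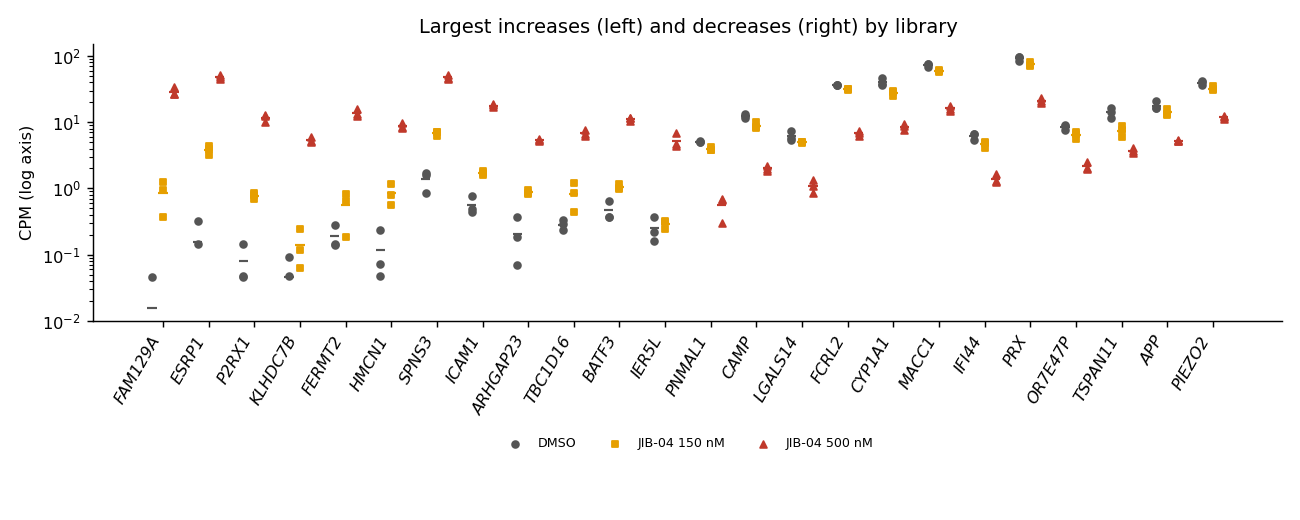
Level in CPM (log y axis) of the 12 largest increases and 12 largest decreases among the genes eligible to be named, in each of the 9 libraries, with group means as bars. Libraries at 0 cannot be drawn on a log axis. The increases start under 2 CPM with DMSO, and the 150 nM libraries lie between the other groups for most of them.

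Some genes were detected in the 500 nM libraries with no count in any DMSO library. With 3 counts over the group as the limit that a count of 0 allows, DLL4, a Notch ligand, was at least 29.2-fold higher (123 counts against 0) and the chemokine CXCL10 at least 23.7-fold (100 against 0). DLX3, a homeobox gene, was at least 19.9-fold higher. KLF2, a factor of naive B cells, had 76 counts against 0 and IL6R 63 against 0. LMO2, commonly used as a marker of germinal-centre lymphoma, went from 2 counts to 181, a ratio of 64.4 (95% counting interval 17.6 to 536), and ITGB2, the beta chain of leukocyte integrins, from 2 to 308, a ratio of 110.0 (30.1 to 909). These genes were chosen after their values were seen, and they remained low: LMO2 reached 1.07 CPM on average and KLF2 0.491.

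Adhesion genes included large increases, and actin genes more often fell. Of 31 tested adhesion and integrin genes, 15 rose and 5 fell, with 4 of the 31 under the filter level in a DMSO library. ICAM1, the ligand of the integrin LFA-1, rose by 4.94 ± 0.18, from 0.765, 0.44 and 0.492 CPM to 17.9, 18.6 and 17.1 CPM, and ZYX, a focal adhesion protein, by 2.32 ± 0.21. The parvin PARVB fell by 0.87, from 24.5, 26.5 and 22.7 CPM to 13.5, 13.6 and 13.1 CPM. Of 42 tested genes of the actin cytoskeleton, 28 fell and 9 rose, with a median log2 fold change of -0.316. ACTB stood at 3502, 3540.5 and 3347 CPM with DMSO and 2083, 2151 and 2117 CPM at 500 nM, with no overlap, and fell by 0.71 ± 0.04. CORO1A, the leukocyte coronin, fell by 0.89 and RAC2, a haematopoietic GTPase, by 0.74. TPM4 rose by 0.52 ± 0.06.

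Genes of the mitotic spindle and chromosome were partly lower. Of 22 tubulins and tubulin-folding genes, 12 fell and 8 rose. TUBB stood at 2648, 2625 and 2498 CPM with DMSO and 1386, 1445 and 1450.0 CPM at 500 nM and TUBB4B at 360.4, 336 and 318 CPM with DMSO and 166, 175 and 171 CPM at 500 nM. They fell by 0.86 and 0.99, and TUBA1C by 0.99. TUBB2B and TUBB6 rose by 1.15 ± 0.12 and 0.64 ± 0.18. Tubulin genes are near-identical copies, among which the counting could split reads. Kinesins were evenly divided, 13 higher and 13 lower of 34. KIF20A, needed for cytokinesis, stood at 156, 152 and 159 CPM with DMSO and 61.9, 61.8 and 65.2 CPM at 500 nM, and fell by 1.31 ± 0.06. The mitotic kinesins KIF14 and KIFC1 fell by 0.69 and 0.68. The transport kinesins KIF13A, KIF21B and KIF1B rose by 3.16 ± 0.23, 1.85 ± 0.10 and 1.82 ± 0.08.

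Among 35 centromere and kinetochore genes, 12 fell and 6 rose, a share of calls close to the 52.0% over all genes. Under scaling by total counts the figures were 11 and 12. CENPE, the kinetochore motor, stood at 231, 255 and 275 CPM with DMSO and 114, 118 and 122 CPM at 500 nM, and fell by 1.10 ± 0.08, and CENPF fell by 0.82. CENPU, CENPM and CENPQ, of the inner kinetochore, rose by 0.41 ± 0.06, 0.40 ± 0.09 and 0.39 ± 0.10. For condensin, cohesin and related genes, 12 of 26 fell and 3 rose, against 7 and 9 under scaling by total counts. The condensin subunits NCAPD2, NCAPG and SMC4 fell by 0.73, 0.65 and 0.71.

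Many cell-cycle genes carry in their promoters a CCAAT box, the binding site of NF-Y, and some the cell-cycle homology region TTTGAA. In the tubulin, kinesin, centromere, condensin and nuclear transport lists, 11 genes were lower by more than 1.5-fold. Of these 11, 8 held CCAAT on either strand in the 250 bases before their start, 4 held TTTGAA and the same 4 held both. The other 3, CENPE, TUBA1B and NUP62, held neither. No share over all tested genes was taken for this window of 250 bases. The promoters of 4 of the 11 were picked as examples after all had been seen, to show the letters in their context. They are from RefSeq (GRCh38.p14), with either motif in capitals (ATTGG and TTCAAA are the motifs on the opposite strand). KPNA2, NCAPD2 and TUBB4B held both motifs, and KIF20A held CCAAT but not TTTGAA. TUBA1C, which also held both, and the 3 genes with neither are not shown. KPNA2 lies at chr17:68035485-68035734 (+ strand), NCAPD2 at chr12:6493852-6494101 (+), TUBB4B at chr9:137241037-137241286 (+) and KIF20A at chr5:138178862-138179111 (+).
KPNA2: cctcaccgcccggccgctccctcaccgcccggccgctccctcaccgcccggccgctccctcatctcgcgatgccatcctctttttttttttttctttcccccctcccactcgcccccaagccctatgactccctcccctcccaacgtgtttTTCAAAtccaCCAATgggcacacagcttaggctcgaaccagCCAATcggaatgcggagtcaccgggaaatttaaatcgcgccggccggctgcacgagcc
NCAPD2: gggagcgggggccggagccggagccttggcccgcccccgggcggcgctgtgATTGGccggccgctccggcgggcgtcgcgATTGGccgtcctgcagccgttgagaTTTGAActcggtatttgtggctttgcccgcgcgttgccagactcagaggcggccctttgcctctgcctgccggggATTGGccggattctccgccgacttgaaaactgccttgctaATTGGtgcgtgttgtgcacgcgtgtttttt
TUBB4B: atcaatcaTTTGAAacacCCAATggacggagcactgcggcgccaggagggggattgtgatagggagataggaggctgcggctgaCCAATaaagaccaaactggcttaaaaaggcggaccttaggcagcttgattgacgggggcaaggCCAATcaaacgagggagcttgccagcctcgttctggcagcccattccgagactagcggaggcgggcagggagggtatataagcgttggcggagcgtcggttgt
KIF20A: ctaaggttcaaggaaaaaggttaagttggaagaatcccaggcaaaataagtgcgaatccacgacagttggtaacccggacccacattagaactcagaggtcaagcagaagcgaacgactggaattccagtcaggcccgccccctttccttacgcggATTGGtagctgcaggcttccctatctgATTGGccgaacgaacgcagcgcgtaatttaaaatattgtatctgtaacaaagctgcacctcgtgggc
Over all protein-coding genes other than histones that were lower by more than 1.5-fold, the 300 bases around the start held CCAAT in 45.6% of 261 promoters, against 36.7% of 10520 tested genes and 35.7% of all 27305 promoters in the table. TTTGAA was held by 19.9%, against 9.98% and 15.4%, and both by 11.9%, against 4.09% and 6.08%. Of the other 8 motifs searched, some were held more often by the lower genes than by the tested genes: the ATF-C/EBP composite element (3.07% and 1.83%), the TATA box TATAAA (7.66% and 5.88%) and the E-box CACGTG (11.1% and 10.1%). The rest were held less often: the antioxidant response element core TGACNNNGC (12.3% and 15.1%), the xenobiotic response element core GCGTG (47.1% and 50.2%), the NF-kB site (5.36% and 7.44%), the AP-1 site TGACTCA (2.3% and 2.98%) and the cyclic AMP response element (2.68% and 3.19%). These shares are a description, with no test, and a match of letters is not a bound site. No share is given for genes that rose, because only 77.0% of them had a promoter in the table.

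Genes of nuclear transport, RNA processing and translation were mostly lower. Of 43 tested nuclear pore and transport genes, 34 fell and 1 rose. KPNA2, which carries cargo into the nucleus, stood at 532, 528 and 531 CPM with DMSO and 229, 231 and 227 CPM at 500 nM, and fell by 1.21 ± 0.05. The central-channel nucleoporin NUP62 fell by 0.80 and the GTPase RAN by 0.61. The one increase was XPOT, the exporter of tRNA, at 0.76 ± 0.05, which also belongs to the ATF4 list. Scaling by total counts gave 20 lower and 7 higher.

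Splicing factors fell in 44 of 62 cases and rose in 8. RBFOX2, a regulator of alternative exons, stood at 226, 219 and 231 CPM with DMSO and 89.4, 98.1 and 100.5 CPM at 500 nM. HNRNPA2B1 stood at 1646, 1905 and 1808 CPM with DMSO and 912, 918 and 845 CPM at 500 nM. Every 500 nM library lay under every DMSO library, and RBFOX2 fell by 1.23 ± 0.05. HNRNPA2B1 fell by 1.0 ± 0.05 and CELF2 by 0.89. ESRP1, the splicing regulator of epithelial cells, was the great exception. It was at 0.325, 0.147 and 0 CPM with DMSO and 52.3, 47.7 and 45.8 CPM at 500 nM. MBNL2 and the kinase CLK4, which phosphorylates splicing factors, rose by 0.58 ± 0.09 and 0.48 ± 0.09.

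Translation initiation and elongation factors fell in 30 of 42 cases and rose in 3 (total counts: 6 higher, 23 lower). EIF5A fell by 0.84 ± 0.06, from 685, 686 and 585 CPM to 368, 364 and 364 CPM, EIF5B by 0.81 and the poly(A)-binding protein PABPC4 by 0.69. EIF1, which monitors start codons, rose by 1.11 ± 0.07, and the repressor EIF4EBP1, an ATF4 target, by 2.01 ± 0.07. Cytosolic aminoacyl-tRNA synthetases were split, with 12 of 23 higher and 7 lower. WARS, for tryptophan, stood at 81.6, 77.1 and 81.9 CPM with DMSO and 379, 355 and 335 CPM at 500 nM, and CARS and TARS, for cysteine and threonine, rose with it (2.15 ± 0.06, 1.30 ± 0.06 and 1.21 ± 0.06). RARS, FARSB and QARS, for arginine, phenylalanine and glutamine, fell by 0.69, 0.60 and 0.48. Several synthetase genes are known ATF4 targets.

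Small nucleolar RNAs, which guide modification of ribosomal RNA, were lower as a gene type, with a median log2 fold change of -0.607. Of 226 tested, 41.6% fell and 1.77% rose, against 25.6% and 26.3% over all tested genes. Calls of this gene type under scaling by total counts were not counted. Of 16 host genes of such RNAs, 6 fell and 2 rose (total counts: 4 higher, 5 lower). SNHG4 stood at 28.8, 31.1 and 27 CPM with DMSO and 9.75, 10.2 and 8.5 CPM at 500 nM, and fell by 1.61 ± 0.10, SNHG3 fell by 0.96, and SNHG1 rose by 0.39 ± 0.05. Reads of a small nucleolar RNA and of the host intron around it may not be told apart in this counting.

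Proteasome genes had the largest share of lower members among the 46 lists, at 94.4%. Of 36 tested subunit genes, 34 fell, none rose, and log2 fold changes ran from -0.87 to -0.12 with a median of -0.471. PSMD1, a base subunit of the regulatory particle, stood at 442, 439 and 459 CPM with DMSO and 244, 242 and 247 CPM at 500 nM. PSMA3, of the outer ring of the core, stood at 149.6, 154 and 153 CPM with DMSO and 87.3, 88.2 and 90.2 CPM at 500 nM, and PSMB2, of the inner ring, at 207, 202 and 207 CPM with DMSO and 129, 121 and 129 CPM at 500 nM. As the rule for naming required, none overlapped between the groups, and they fell by 0.87, 0.78 and 0.71. Scaling by total counts left 32 of the 36 called lower. In the NRF2 and thioredoxin list, 17 of 29 fell and 6 rose (total counts: 9 higher, 11 lower). PRDX1, a peroxiredoxin, fell by 0.81 and TKT, of the pentose phosphate pathway, by 0.78, whereas the cystine transporter SLC7A11, also an ATF4 target, rose by 1.61 ± 0.07.

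Folding and degradation genes of the endoplasmic reticulum moved in both directions. Of 40 tested, 18 rose and 12 fell. SEL1L, the adaptor of the HRD1 ubiquitin ligase in degradation, rose by 1.38 ± 0.05, from 106, 109 and 111 CPM to 287, 275 and 289 CPM, and HERPUD1, of the same pathway, by 1.14 ± 0.05. The co-chaperone DNAJB9 rose by 1.0 ± 0.10. MANF stood at 62.7, 68.8 and 60.9 CPM with DMSO and 29.9, 29.9 and 30.6 CPM at 500 nM and SDF2L1 at 31.8, 30.8 and 24.1 CPM with DMSO and 13, 16.5 and 14.6 CPM at 500 nM. Both are known to be induced by the unfolded protein response, and here they fell by 1.09 and 0.98, as did PDIA3, by 0.64.

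Biosynthetic and mitochondrial genes fell in several lists. Of 33 tested genes of purine and pyrimidine synthesis, 22 fell and none rose (total counts: 5 higher, 17 lower). APRT, which salvages adenine, stood at 127, 129 and 111 CPM with DMSO and 65.9, 69.2 and 62.2 CPM at 500 nM, and fell by 0.90 ± 0.07. ATIC, the last enzyme of purine synthesis, fell by 0.75, and IMPDH1, of guanine nucleotide synthesis, by 0.70. Of 35 genes of the tricarboxylic acid cycle and pyruvate entry, 24 fell and 2 rose, against 14 and 6 under scaling by total counts. IDH2 stood at 199, 187 and 187 CPM with DMSO and 112, 122 and 111 CPM at 500 nM, and fell by 0.73 ± 0.06, and OGDH, which uses 2-oxoglutarate, fell by 0.66. Among 77 mitochondrial ribosomal proteins, 50 fell and 6 rose, against 32 and 12 under scaling by total counts, and MRPS28, MRPS25 and MRPL24 fell most of those named, by 0.88, 0.88 and 0.78. In mitochondrial import and protein quality control, 21 of 36 fell and 5 rose (total counts: 8 higher, 17 lower). The chaperonin pair HSPE1 and HSPD1 fell by 0.93 and 0.55, while the protease LONP1 rose by 0.73 ± 0.05, from 219, 208 and 198 CPM to 347, 354 and 333 CPM.

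Degradative compartments went the other way. Of 43 tested autophagy genes, 23 rose and 4 fell (total counts: 29 higher, 0 lower). OPTN, a receptor for ubiquitinated cargo, stood at 3.15, 4.07 and 3.96 CPM with DMSO and 13.3, 15.7 and 12 CPM at 500 nM, and rose by 1.88 ± 0.15. WIPI1, of the forming membrane, rose by 1.01 ± 0.08, and MAP1LC3B, whose protein coats that membrane, by 0.89 ± 0.07, from 64.6, 66 and 59.2 CPM to 127, 118 and 108 CPM. Of 42 lysosomal genes, 21 rose and 6 fell (total counts: 27 higher, 3 lower). The membrane protein SCARB2 rose by 0.78 ± 0.11 and TFE3, an activator of lysosomal genes, by 0.54 ± 0.10, while the cathepsins CTSH and CTSZ fell by 0.92 and 0.65. Among 44 genes of lipid handling, 20 rose and 4 fell (total counts: 25 higher, 2 lower), with SMPD1, the acid sphingomyelinase, at 0.78 ± 0.12. Of 42 regulators of mTORC1 and FOXO, 19 rose and 9 fell (total counts: 22 higher, 5 lower). RRAGD, a lysosomal GTPase of mTORC1, rose by 1.61 ± 0.13, from 5.38, 4.84 and 5.62 CPM to 18.4, 14.2 and 16 CPM, and DDIT4L, an inhibitor of mTORC1, by 2.12 ± 0.14. LAMTOR4, of the lysosomal anchor of mTORC1, fell by 0.51.

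Signalling and developmental regulators included several increases. Among 50 effectors of Wnt, Notch, TGF-beta and Hippo signalling, 24 rose and 4 fell (total counts: 31 higher, 2 lower), with 6 of the 50 under the filter level in a DMSO library. NOTCH1 stood at 5.01, 2.31 and 2.88 CPM with DMSO and 7.9, 12.8 and 10.6 CPM at 500 nM and SMAD7, an inhibitor of TGF-beta receptors, at 2.92, 2.82 and 2.39 CPM with DMSO and 8.51, 6.08 and 7.12 CPM at 500 nM. They rose by 1.59 ± 0.22 and 1.42 ± 0.17, and the SMAD co-repressor SKI by 1.34 ± 0.17. DTX1, a Notch regulator of B cells, fell by 0.77. Of 84 homeobox genes with a symbol, 32 could be tested, 18 of which rose and 2 fell (total counts: 21 higher, 1 lower). In 7 of these 32 at least 1 DMSO library lay under the filter level. HHEX, a factor of germinal-centre B cells, stood at 3.76, 3.37 and 3.56 CPM with DMSO and 12.7, 14 and 12.1 CPM at 500 nM, and rose by 1.85 ± 0.14. SIX5 and ZEB2 rose by 1.27 ± 0.20 and 1.16 ± 0.07.

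Of 17 circadian clock genes, 8 rose (47.1%, against 26.3% over all tested genes) and none fell (against 25.6%). NFIL3, which represses clock output, stood at 4.08, 6.09 and 3.49 CPM with DMSO and 17.5, 14.2 and 15.1 CPM at 500 nM, and rose by 1.80 ± 0.18. The kinase CSNK1E rose by 1.0 ± 0.13 and the nuclear receptor NR1D2 by 0.72 ± 0.09. Among 35 genes of MAPK feedback, 11 rose and 9 fell (total counts: 15 higher, 4 lower). The ERK phosphatase DUSP5 rose by 1.43 ± 0.13, and the kinases MAP3K8 and MAP2K3 fell by 0.65 and 0.66. Of 439 tested zinc-finger genes of the ZNF series, 133 rose (30.3%) and 63 fell (14.4%), against 208 and 36 under scaling by total counts, with 14 of the 439 under the filter level in a DMSO library. ZNF777 rose by 1.53 ± 0.11 and ZNF860 fell by 1.11. Of 143 solute carriers outside the amino-acid families, 51 rose and 25 fell, with 19 of the 143 under the filter level in a DMSO library. SLC12A8 rose by 4.34 ± 0.29, from 0.301, 0.367 and 0.234 CPM to 6.65, 6.21 and 5.06 CPM, and the monocarboxylate carrier SLC16A4 fell by 0.95.

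Another 4 lists gave changes in both directions. Of 35 genes of fatty acid oxidation and the peroxisome, 16 fell and 5 rose (total counts: 8 higher, 11 lower). COPI, COPII and Golgi transport genes rose in 10 and fell in 13 of 41 cases (total counts: 14 higher, 6 lower), with the SNARE STX5 at 0.92 ± 0.08. Nonsense-mediated decay factors rose in 6 and fell in 8 of 24 cases (total counts: 11 higher, 4 lower). Genes of RNA polymerase II, Mediator and elongation rose in 13 and fell in 14 of 53 cases (total counts: 23 higher, 8 lower). These shares, 24.5% and 26.4%, were close to the 26.3% and 25.6% over all tested genes. The list held the cyclin CCNK at 0.80 ± 0.11 and the polymerase subunit POLR2L at -0.59 ± 0.08.

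The strongest coordinated changes, which are only counted here, were those of the integrated stress response, with 48 of 49 tested genes higher, and of replication-dependent histones, with 57 of 61 lower.

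The 150 nM libraries share their DMSO controls with this comparison, so values are set side by side without a test of likeness. FYN averaged 4.31, 7.7 and 35.8 CPM with DMSO, 150 nM and 500 nM. IRF4 averaged 245, 251 and 451 CPM, XBP1 7.5, 8.34 and 23.3, and KDM6B 8.45, 9.4 and 28.4. For these genes most of the distance lay between 150 and 500 nM. IKZF1 averaged 469.6, 434 and 258 CPM and CD52 122, 109 and 38.4. The proteasome list had a median log2 fold change of -0.066 at 150 nM and -0.471 at 500 nM, and the autophagy list 0.02 and 0.2.

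The direction of a call went with the level of the gene and with features of its transcript. With the tested genes divided into 5 classes of equal size by mean CPM, 20.1% rose and 49.8% fell in the highest class, against 33.3% and 17.8% in the second-lowest. Divided likewise, genes with the highest transcript GC content rose in 34.5% and fell in 17.6% of cases, and those with the lowest GC rose in 22.2% of cases. The shortest transcripts rose in 17.8% and the longest in 31.5% of cases. Removing the GC trend, in the 14453 genes with a GC value, gave 8349 calls, against 7843 calls without removal. Of these, 7389 were called both ways, and 7388 of them had the same direction. Genes called only one way are not in that comparison. The part of level and of transcript features in the counts of each list was not tested.

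**Figure D5:**
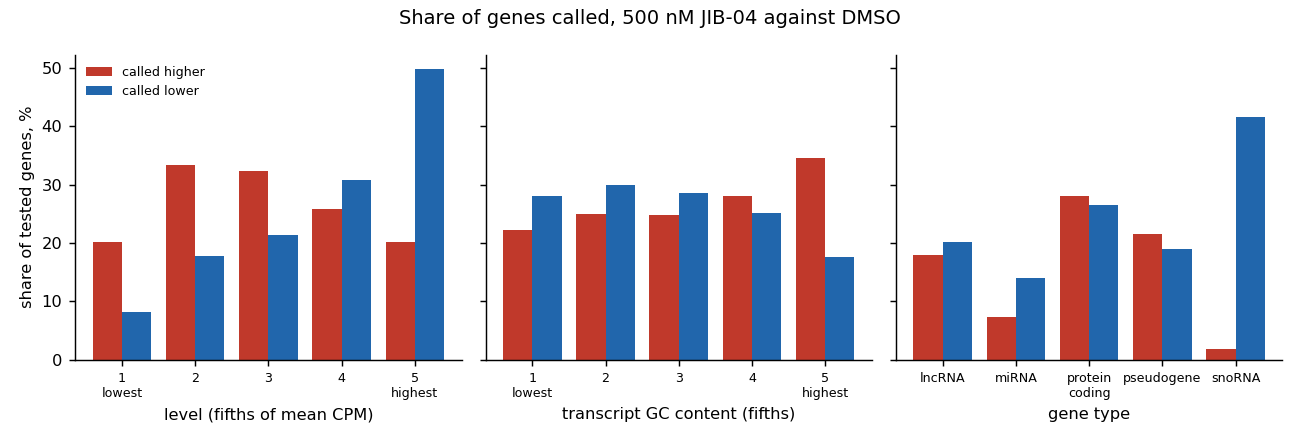
Share of tested genes called higher (red) and lower (blue), in percent on the y axis, by 5 classes of mean CPM, by 5 classes of transcript GC content, and by gene type. The highest class of level holds the most decreases (49.8%), the highest class of GC the most increases of that panel (34.5%), and small nucleolar RNAs are rarely higher (1.77%).

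Markers of B cells were present in all libraries and those of most other cell types were near absence. The summed level of 8 B-cell markers was 1604 to 1671 CPM with DMSO and 1389 to 1452 at 500 nM. That of 8 germinal-centre markers was 916 to 972.7 and 735.2 to 767.9 CPM, although LMO2 was nearly absent with DMSO and SERPINA9 was too low to test. For 7 plasma-cell markers the sums were 1062 to 1093 and 1105 to 1115 CPM. NK-cell, myeloid, epithelial, fibroblast, endothelial, erythroid and neuronal markers each summed to under 10 CPM in every library compared. The neuronal sum was 3.079 to 4.544 CPM with DMSO and 6.556 to 9.589 at 500 nM. The 7 T-cell markers summed to 404.2 to 416.3 CPM with DMSO and 261.3 to 290.0 at 500 nM, mostly from IL7R (384, 394 and 389.6 CPM and 253, 281 and 273 CPM). Of these 7 markers 4 fell, 3 of them by more than 1.5-fold: CD3G went from 11.3, 14.2 and 12.1 CPM to 4.56, 5.1 and 5.21 CPM, CD3D from 6.004, 5.79 and 5.36 CPM to 2.04, 1.98 and 2.17 CPM, and CD2 from 0.742, 0.513 and 1.05 CPM to 0.0664, 0.0444 and 0.0747 CPM. CD3E, CD5 and CD8A did not pass the test and stayed under 1 CPM. Their part in other results was not tested.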

How the data were processed

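RNA of OCI-Ly1 cells was sequenced after depletion of ribosomal RNA. The authors deposited a single table of read counts by gene symbol, not normalized, with groups and replicate numbers taken from the sample titles. Per the submitters' processing notes, the tools were featureCounts 1.4.6, Subread, TopHat2 2.0.14 and Bowtie2 2.2.6 and the builds hg19 and mm10, without roles. The strand setting and the version of the annotation were not given in the sources used here. Without a known strand setting, reads of overlapping or antisense genes cannot be told apart.

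Counts were fitted with edgeR 4.0.16 in R 4.3.3. Genes passed filterByExpr (minimum count 10, total 15), libraries were scaled by TMM, and a robust quasi-likelihood model was fitted to all 9 libraries. The 500 nM and DMSO groups were contrasted, with Benjamini-Hochberg adjustment over 15089 genes and a threshold of 0.05, and glmTreat tested for a change above 1.5-fold. Standard errors were derived from the unshrunk change and the F statistic. Depth was 28476845 to 57198613 counts; counting intervals cover counting error only. Within each group, pairs of libraries differed beyond sampling noise (chi-square per degree of freedom 7.22 to 14.28). On simulated counts, 66% of genes changed 1.25-fold, 94% changed 1.5-fold and 100% changed 2-fold or 4-fold were called, with 7 false calls among 187 (14858 genes tested). The test above 1.5-fold recovered 0% of genes changed 1.25-fold or 1.5-fold, 88% changed 2-fold and 100% changed 4-fold. The changed genes were drawn only from genes of higher count and were far fewer than those called in the data. Recovery near the filter level was therefore not measured.

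The comparison, the 46 gene lists and the rule for named genes were chosen with earlier results of these data known. Named are, among called genes that reach a mean of 5 CPM and whose groups do not overlap, the 20 largest increases and decreases outside stress-response and histone genes, up to 3 of each per list, and 8 chosen genes (KDM4A, KDM4B, KDM4C, BCL6, CIITA, PRDM1, IRF4, MYC); the text gives some of them. IL7R, the other T-cell markers, SERPINA9, HLA-DRA and IL6R were named outside the rule after their values were seen, as were the genes said to be so in the text. In the table, 3 list entries matched through a RefSeq synonym. Transcript length and GC content came from the longest GENCODE transcript (95.8% of tested genes). Alternatives were DESeq2 1.42.0, limma-voom (limma 3.58.1), other scalings and filters, a GC correction (lowess span 0.3), the 6 libraries alone, a replicate block, and leaving out each library or the 20 most abundant genes. A few genes of the lists are not reported here.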

Additional observations from a re-analysis of the deposited data

How the results depend on the processing

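Scaling by total counts changed the balance of calls: 2514 genes were lower in place of 3868, 283 were lower by more than 1.5-fold in place of 453, and 69.5% of called genes were higher in place of 50.7%. It also turned the sign of 12 list medians, and BCL6 became higher. Under the other alternatives, among them DESeq2 (3984 higher, 3924 lower), limma-voom (4047 and 3926), no filter (4156 and 3903) and removal of the GC trend (4166 and 4183), the counts over all genes stayed within 1.5 times. Counts within lists were less stable. Of 96 list counts, 43 moved by more than 1.5 times, or from 0, under some alternative, total counts included. Removing the GC trend, for example, gave 10 centromere and kinetochore genes higher in place of 6. Leaving out each library in turn gave 3542 to 4179 higher and 3511 to 4051 lower genes, and 871 to 1097 higher and 388 to 475 lower by more than 1.5-fold. The same replicate numbers did not pair the libraries: correlations of their deviations were -0.051, -0.003 and -0.013. With the replicate number as a block, 4111 genes were higher and 4022 lower, and 1035 and 471 by more than 1.5-fold. Of 295 named genes, 279 kept their call and direction under every one of the 19 alternatives that gave them a value. ACTB and TUBB had none without the 20 most abundant genes. MRPL41 reversed when the GC trend was removed, to a log2 fold change of -0.15 (edgeR adjusted p = 0.0387); the cause was not tested. CIITA (0.18), TPM1 (0.32) and KDM4D (0.40) no longer passed without 1 DMSO library. The shallowest library, DMSO replicate 2, and 3 libraries a group limit what could be called for genes near the filter level.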
